A study of Mus musculus with 6 samples.

Results

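The genes described here were 24 immediate-early genes and 11 heat shock genes, taken by symbol from the deposited table of read counts per gene of mouse glomeruli. The 35 symbols were matched to 35 of the 57132 gene rows through a table of Ensembl identifiers, and all 35 passed the filter on low counts. They were grouped by role into 8 subunits of the AP-1 transcription factor, 10 genes of the Egr, Nr4a and Ier families with Myc, 4 genes of negative feedback (3 Dusp phosphatases and Zfp36), 2 secreted CCN proteins, and 11 heat shock chaperones, co-chaperones and their regulator Hsf1. The study compared 3 samples of genotype Cre-/Setdb2fl/fl with 3 of genotype Cre+/Setdb2fl/fl, written below as Cre- and Cre+. All 6 samples were labelled DKD, for diabetic kidney disease, so the controls carried the floxed Setdb2 alleles and the disease label too, and no sample without the disease is part of the comparison. The study asked how SETDB2 of podocytes, a histone methyltransferase, bears on the disease. The sources used here do not give the Cre driver, how diabetes was induced, the animals' age or sex, or whether a sample pooled animals. No label ties the 3 samples of a genotype to separate animals, so p-values cover only the spread between these samples, which may be technical.

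As background, immediate-early genes are transcribed within minutes of a stimulus from factors already present in the cell, with no need for new protein synthesis. Growth factors, stretch and stress act through MAP kinases on serum response factor, its ternary complex partners and CREB, which switch on Fos, Jun and Egr genes; their protein products then drive a later set of targets, while Dusp phosphatases remove the kinase signal and ZFP36 shortens the life of AU-rich messages. Heat shock genes are driven by HSF1, which is released from chaperones when unfolded protein accumulates. Both programmes are raised by injury of kidney cells, and both can be raised by the handling of tissue during isolation, which is why these genes serve as a check of isolation stress.

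Each library held 53571438 to 58807042 counts. Mitochondrial genes took 8.40%, 8.92% and 9.63% of them in the Cre- libraries and 10.2%, 9.58% and 9.97% in the Cre+ libraries, a higher share on average in Cre+ with an overlap of the groups; the part of this in the results below was not tested. Levels are given as CPM, the counts relative to the library's total, scaled by TMM factors. A count of 3, the limit that a count of 0 allows, corresponded to at most 0.0563 CPM, for counting error only. Setdb2 itself was measured at 9.73, 8.80 and 6.58 CPM in the Cre- libraries and 8.01, 7.79 and 7.29 CPM in the Cre+ libraries, and the log2 fold change of -0.12 (SE 0.176, edgeR adjusted p = 0.738) did not pass the test; the table holds whole-gene counts and glomeruli hold many cells besides podocytes. The library labelled Cre+ replicate 2 stood apart in Xist, the RNA of the inactive X chromosome, with 24 counts against 36474 to 47632 in the other 5, while Y-linked Kdm5d, Ddx3y, Eif2s3y and Uty had 0 counts in each library. For many of the results below, the value without that library is given too. Podocyte, glomerular endothelial and mesangial markers were all detected, and so were markers of the tubule, described at the end.

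Of the 35 genes, 4 were lower in Cre+ glomeruli at an adjusted p under 0.05 and 0 were higher by edgeR's quasi-likelihood test: the AP-1 subunit Fosl2, the HSF1 cofactor Ier5, the ERK phosphatase Dusp5 and the cytosolic chaperone Hsp90aa1. Among all 19927 genes tested, 1505 or 7.55% were called, 3.82% lower and 3.73% higher, against 11.4% lower among the 35. At an unadjusted p under 0.05 there were 15 lower and 1 higher. Such values were common among all genes: Dusp6, with an unadjusted edgeR p of 0.0467, ranked 4533 of the 19927 by p. DESeq2 called 12 lower and 0 higher, and limma with voom weights 7 lower and 0 higher. Over all genes DESeq2 called 1430 lower and 1267 higher, and voom 850 lower and 806 higher. Leaving out each library in turn left 2 to 5 of the 35 called, all lower; Fosl2 and Ier5 were called each time, and they were the only ones called without Cre+ replicate 1 or without Cre+ replicate 3. In 13 of the 35 genes (37.1%) every Cre+ library lay below every Cre- library, against 14.5% of all genes tested, and in 1 gene, Egr3, every Cre+ library lay above, against 15.2%. The median log2 fold change was -0.33, against -0.00089 over all genes tested, and 23 of the 35 estimates were below 0 (65.7%, against 50.1%). The immediate-early and heat shock groups had different medians, -0.45 over the 24 immediate-early genes and 0.02 over the 11 heat shock genes. Whether the 2 groups differ was not tested. The members were chosen with earlier results of these data known, so these counts are descriptions.

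**Figure D1:**
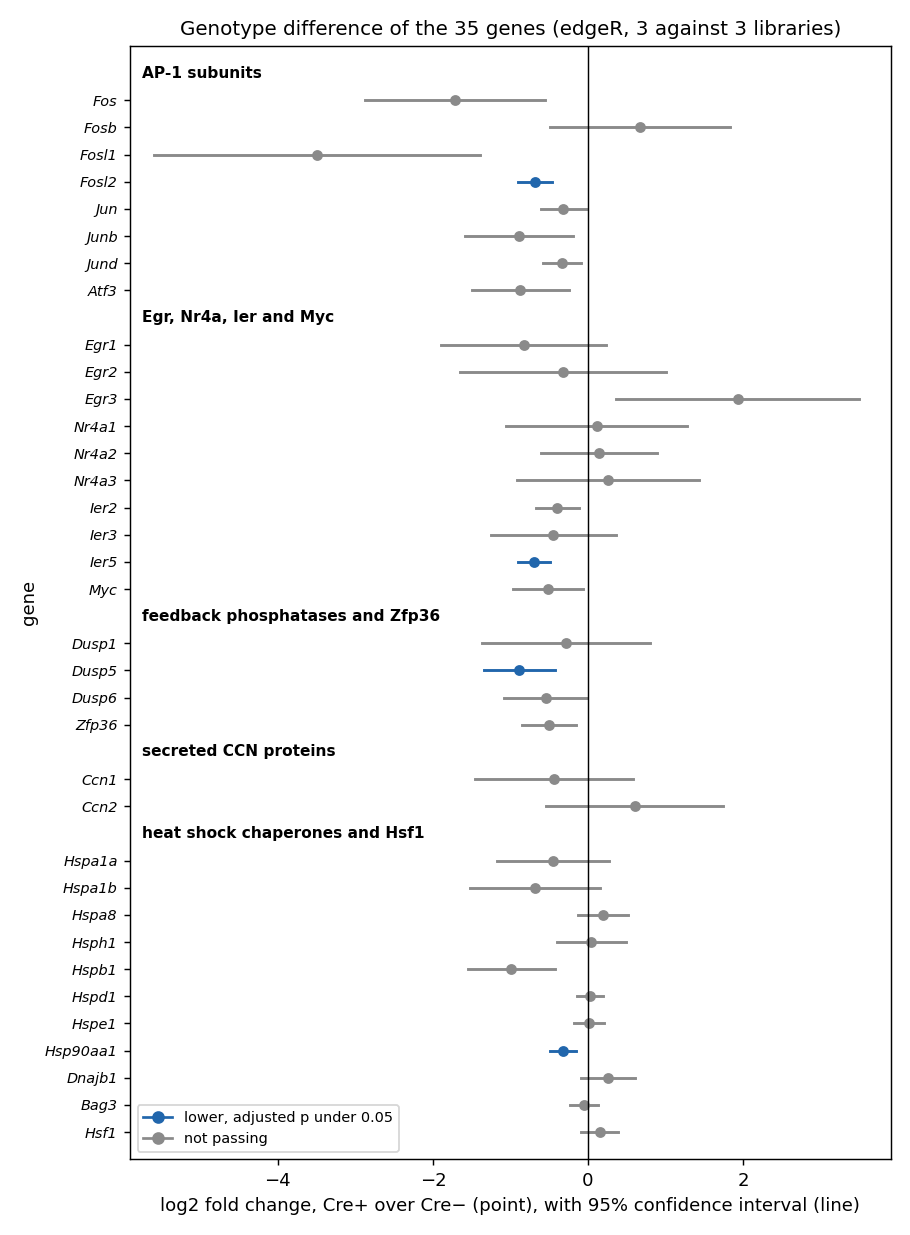
Log2 fold change of Cre+ over Cre- glomeruli for each of the 35 genes, ordered by role, with 95% confidence intervals from edgeR's quasi-likelihood test and n = 3 libraries per genotype. Fosl2, Ier5, Dusp5 and Hsp90aa1 passed the threshold, all lower in Cre+; Fosl1 at -3.49 and Egr3 at 1.93 have the lowest and the highest estimates and rest on few counts.

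AP-1 is a dimer of Fos and Jun family proteins, or of these with ATF proteins such as ATF3. Of its 8 subunit genes, 1 (Fosl2) was lower past the threshold, against 3.82% of all genes tested. Estimates were below 0 for 7 of the 8, against 50.1% of all genes, with a median log2 fold change of -0.78. In 6 of the 8 the genotypes did not overlap, all lower in Cre+, against 14.5% of all genes tested. Summed over the 8 genes, the level was 335, 361 and 319 CPM in the Cre- libraries and 212, 279 and 255 CPM in the Cre+ libraries. The Cre+ sums all lay below the Cre- sums.

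Fosl2 (ENSMUSG00000029135), which encodes the Fos family protein FRA2, was measured at 43.0, 43.6 and 36.1 CPM in Cre- and at 24.9, 24.6 and 27.1 CPM in Cre+. The lowest Cre- library was above the highest Cre+ library, and the Cre+ libraries lay close together. The means were 40.9 ± 4.16 and 25.5 ± 1.36 CPM (SD, n = 3), and the log2 fold change was -0.68 (SE 0.097, 95% interval -0.90 to -0.46, edgeR adjusted p = 0.00543). The call held in each of the alternative settings tried, with adjusted p up to 0.0322. The 250 bases before its start site are shown because Fosl2 is the AP-1 gene that passed the test; they lie at chr5:32136222-32136471 on the plus strand (RefSeq, GRCm38.p6). Capitals mark a core heat shock motif (GAANNTTC) whose first base is 244 bases before the start site and a site of the form GCGNGGGCG, the consensus of EGR proteins, 79 bases before it.
Fosl2: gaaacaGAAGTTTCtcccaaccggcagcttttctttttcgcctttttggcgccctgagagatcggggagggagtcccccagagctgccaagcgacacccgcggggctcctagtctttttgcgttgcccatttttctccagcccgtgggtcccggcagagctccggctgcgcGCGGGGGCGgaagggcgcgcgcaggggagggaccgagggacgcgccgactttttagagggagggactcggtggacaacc

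On both strands of such windows 6 motifs were searched: the AP-1 site TGANTCA, the cAMP response element TGACGTCA, the CArG box of serum response factor, the EGR site GCGNGGGCG, the heat shock core GAANNTTC and the full heat shock element, which is that core followed by NNGAA. The table held 26 of the 35 genes, with 33 windows, since a gene can have several start sites; shares are of windows. Fosl1, Egr1, Egr3, Ier2, Myc, Ccn2, Hspa8, Hsp90aa1 and Hsf1 had no window, so no motif was searched for in them. The EGR site was present in 5 of the 33 windows (1 each of Fosb, Fosl2, Nr4a1, Nr4a2 and Zfp36), against 4.7% of all 32851 windows. The AP-1 site was found in 1 (Bag3; 6.75% of all windows) and the cAMP response element in 1 (Dusp1; 1.55%). A match describes the letters of the window and is no evidence of binding.

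The other subunits without overlap did not pass the test. Fos, the prototype immediate-early gene, stood at 4.97, 9.29 and 5.05 CPM in Cre- and 1.29, 3.53 and 1.04 CPM in Cre+. Replicate 2 was the highest library of its genotype in both groups. The log2 fold change of Fos was -1.71 (SE 0.497, edgeR adjusted p = 0.0843); over the alternatives the adjusted p ran from 0.00146 to 0.230, and without Cre+ replicate 2 the log2 fold change was -2.46 with an adjusted p of 0.0210. Fosl1, which encodes FRA1, had 37, 28 and 11 counts in Cre- and 4, 2 and 0 in Cre+, with a log2 fold change of -3.49 (SE 0.925, edgeR adjusted p = 0.0553, range 0.0352 to 0.178). The Cre+ counts are at or near the limit of 3, so the size of this fold is poorly fixed. Junb stood at 48.0, 28.9 and 26.4 CPM against 13.9, 24.1 and 17.8 CPM, with Cre- replicate 1 well above the rest (log2 fold change -0.89, edgeR adjusted p = 0.126; -0.57 and 0.185 without that library).

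Jund, the Jun gene least dependent on stimulation, was the highest AP-1 gene per transcript length, with a mean level of 109 CPM per kilobase of exon in Cre- and 86.7 in Cre+. Its libraries stood at 171, 202 and 174 CPM against 126, 160.4 and 148 CPM (log2 fold change -0.33, edgeR adjusted p = 0.0965). Atf3, a stress-induced partner of Jun proteins, stood at 5.78, 5.53 and 6.61 CPM against 1.97, 4.06 and 3.75 CPM (log2 fold change -0.87, edgeR adjusted p = 0.0953). The remaining AP-1 genes overlapped between genotypes: Jun had a log2 fold change of -0.32 (edgeR adjusted p = 0.174) and Fosb, at 0.268 to 0.977 CPM in Cre- and 0.619 to 1.19 CPM in Cre+, of 0.67 (edgeR adjusted p = 0.485). The overlap of Jun came from Cre+ replicate 2 alone, at 61.5 CPM against 60.6 CPM in the lowest Cre- library. Without Cre+ replicate 2 the log2 fold change of Jun was -0.43 (edgeR adjusted p = 0.137). Fosb was the only AP-1 subunit of the 8 with an estimate above 0. DESeq2 called Fos, Fosl2, Junb, Jund and Atf3 lower, against 1430 of the 19927 genes in its fit.

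**Figure D2:**
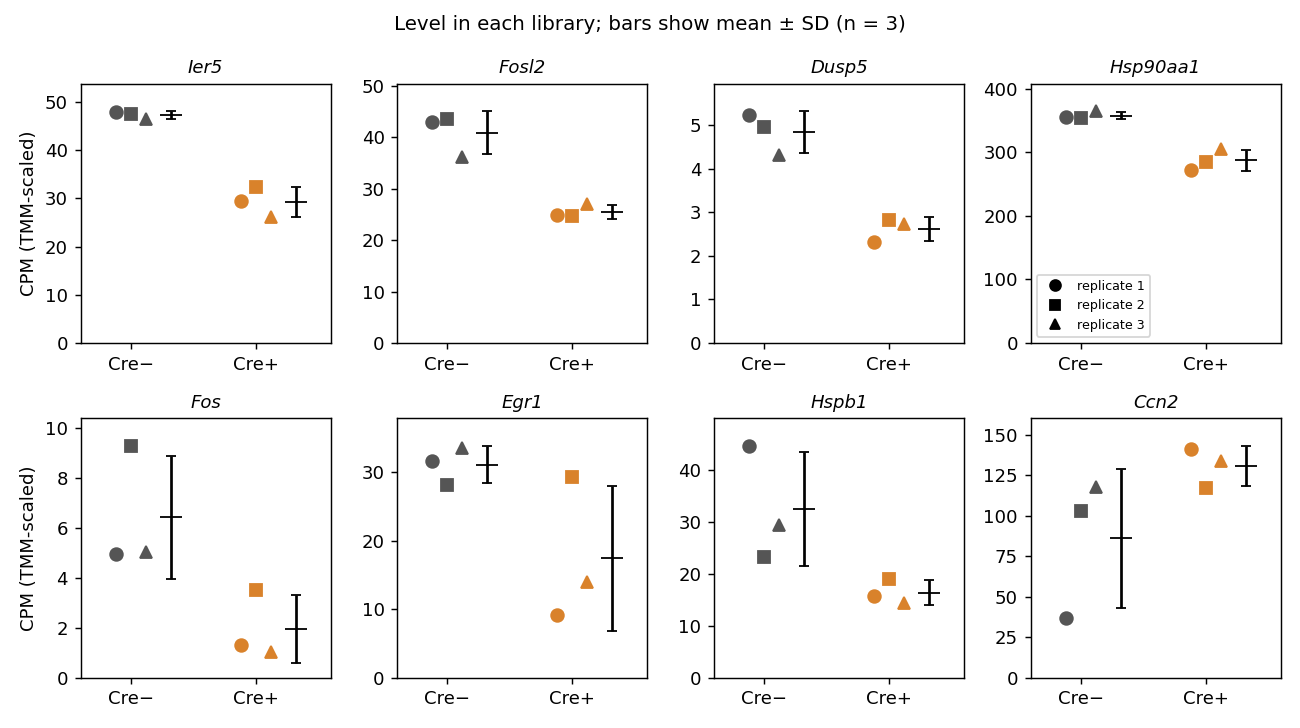
TMM-scaled CPM in each library (points, shaped by replicate number) by genotype, with the mean and SD of 3 libraries beside them, for the 4 genes past the threshold and for Fos, Egr1, Hspb1 and Ccn2; each panel has its own linear axis from 0. The genes in the upper row separate the genotypes with little spread, while Egr1 overlaps through Cre+ replicate 2 and Ccn2 spreads through Cre- replicate 1.

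The group of Egr, Nr4a and Ier genes with Myc was mixed. Of its 10 genes 1 (Ier5) was lower past the threshold and 0 were higher by edgeR, against 3.82% and 3.73% of all genes tested. At an unadjusted p under 0.05, 1 was higher (Egr3), and 0 were higher by DESeq2 or voom. In this group 6 of the 10 estimates were below 0 and the median was -0.36. Ier5 (ENSMUSG00000056708), an immediate-early gene that is also an HSF1 target and whose protein acts with HSF1, had the smallest adjusted p of the 35 genes. Its libraries stood at 47.9, 47.6 and 46.5 CPM in Cre- and 29.4, 32.3 and 26.1 CPM in Cre+. The Cre- libraries differed from each other by a factor of 1.03, and every Cre+ library was well below them. The means were 47.3 ± 0.745 and 29.3 ± 3.09 CPM (SD, n = 3), and the log2 fold change was -0.69 (SE 0.0914, 95% interval -0.90 to -0.48, edgeR adjusted p = 0.00401). It ranked 191 of the 19927 genes by p, and passed in all 14 alternative settings with log2 fold changes of -0.77 to -0.62 and adjusted p up to 0.0210. The 250 bases before its start site, at chr1:155099637-155099886 on the minus strand (RefSeq, GRCm38.p6), are shown as those of the gene with the smallest p; none of the 6 motifs occurs in this window, so it carries no capitals.
Ier5: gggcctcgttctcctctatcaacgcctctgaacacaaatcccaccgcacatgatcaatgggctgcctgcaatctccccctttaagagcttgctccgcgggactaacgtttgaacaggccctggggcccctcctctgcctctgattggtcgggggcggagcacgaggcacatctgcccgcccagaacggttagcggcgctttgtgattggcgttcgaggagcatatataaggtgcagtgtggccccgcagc

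Ier2, a nuclear regulator, was the other gene of the group without overlap and lower in Cre+, at 18.13, 18.72 and 16.17 CPM against 13.39, 14.92 and 12.002 CPM (log2 fold change -0.39, edgeR adjusted p = 0.0885). Ier3, a stress-responsive survival gene, stood at 30.1, 75.2 and 63.1 CPM in Cre- and 41.8, 38.6 and 43.2 CPM in Cre+. Its overlap came from Cre- replicate 1 alone: the log2 fold change was -0.45 (edgeR adjusted p = 0.484) with that library and -0.75 (edgeR adjusted p = 0.00485) without it, the adjusted p over the alternatives reaching 0.812. Myc, a driver of growth and proliferation, had a log2 fold change of -0.52 (edgeR adjusted p = 0.157). Its overlap came from Cre+ replicate 2 alone, at 10.4 CPM against 9.93 CPM in the lowest Cre- library. Without Cre+ replicate 2 the log2 fold change of Myc was -0.63 (edgeR adjusted p = 0.199).

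The Egr genes encode zinc finger factors downstream of ERK. Egr1 stood at 31.6, 28.2 and 33.6 CPM in Cre- and 9.10, 29.4 and 14.0 CPM in Cre+. Here 1 library set the result: Cre+ replicate 2 lay within the Cre- range, 3.23 times as high as Cre+ replicate 1. With it the log2 fold change was -0.83 (SE 0.428, edgeR adjusted p = 0.319), and without it -1.43 (edgeR adjusted p = 0.0149), the adjusted p over the alternatives reaching 0.517. Egr3 ran the other way, with 20, 4 and 27 counts in Cre- and 31, 110 and 46 in Cre+. Cre+ replicate 2 was again the highest, and the log2 fold change of 1.93 (SE 0.69) did not pass the test (edgeR adjusted p = 0.136, range 0.0560 to 0.414); without Cre+ replicate 2 it was 1.29 (edgeR adjusted p = 0.414). Egr2 overlapped, at 0.787 to 1.99 CPM in Cre- and 0.375 to 1.90 CPM in Cre+, with a log2 fold change of -0.32 that was -1.08 without Cre+ replicate 2 and turned to 0.08 without Cre+ replicate 1.

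The 3 Nr4a genes, orphan nuclear receptors induced like Egr1, did not separate the genotypes. Nr4a1 stood at 7.64, 16.2 and 22.7 CPM in Cre- and 9.68, 22.6 and 17.9 CPM in Cre+, with replicate 1 the lowest in both (log2 fold change 0.11, 95% interval -1.06 to 1.28, edgeR adjusted p = 0.922). The interval is wide enough to hold a change of the size seen in Ier5 in either direction, and without Cre+ replicate 2 the estimate turned to -0.17 (edgeR adjusted p = 0.905). Nr4a2 and Nr4a3 had log2 fold changes of 0.14 and 0.26 (edgeR adjusted p = 0.843 and 0.814).

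The feedback genes act on the signal or its messages. All 4 had estimates below 0, with a median of -0.52. By edgeR's test 1 was lower, against 3.82% of all genes tested. DESeq2 called 3 lower (Dusp5, Dusp6 and Zfp36), against 1430 of the 19927 genes in its fit. In 3 of the 4 the genotypes did not overlap, lower in Cre+, against 14.5% of all genes tested. Dusp5 (ENSMUSG00000034765), a nuclear phosphatase of ERK that ERK signalling itself induces, stood at 5.24, 4.96 and 4.30 CPM in Cre- and 2.31, 2.83 and 2.72 CPM in Cre+. Every Cre+ library was below every Cre- library. The means were 4.83 ± 0.48 and 2.62 ± 0.275 CPM (SD, n = 3), and the log2 fold change was -0.88 (SE 0.203, 95% interval -1.34 to -0.42, edgeR adjusted p = 0.0334). This call lies near the threshold: the adjusted p ranged from 0.00105 to 0.118 over the alternatives, and was 0.0747 and 0.0816 without Cre- replicate 1 or 2, and 0.118, 0.0921 and 0.113 without Cre+ replicate 1, 2 or 3. The window before its start site, at chr19:53528895-53529144 on the plus strand (RefSeq, GRCm38.p6), is shown because Dusp5 is 1 of the 3 immediate-early genes past the threshold. It holds a pair of adjacent CArG boxes, in capitals, with first bases 82 and 72 bases before the start site. The CArG box is the site of serum response factor; it was present in 1.47% of all windows and in 6 of the 33, those of Dusp5 and Zfp36 and 4 of Egr2.
Dusp5: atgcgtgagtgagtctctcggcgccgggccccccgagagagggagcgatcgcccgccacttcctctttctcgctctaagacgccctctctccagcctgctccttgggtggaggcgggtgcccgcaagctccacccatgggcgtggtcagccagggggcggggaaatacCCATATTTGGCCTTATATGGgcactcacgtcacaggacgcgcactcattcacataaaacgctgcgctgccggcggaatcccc

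Dusp6, the cytoplasmic ERK phosphatase, stood at 53.2, 48.1 and 88.4 CPM in Cre- and 40.85, 44.15 and 44.97 CPM in Cre+. The groups did not overlap, but Cre- replicate 3 was far above the rest, and the log2 fold change of -0.55 did not pass (edgeR adjusted p = 0.205; DESeq2 adjusted p = 0.0416); without that library it was -0.23 (edgeR adjusted p = 0.149). Zfp36, which encodes the mRNA decay factor tristetraprolin, stood at 47.3, 68.7 and 50.9 CPM against 34.2, 44.3 and 39.4 CPM (log2 fold change -0.50, SE 0.153, edgeR adjusted p = 0.0918; DESeq2 adjusted p = 0.0156). Without Cre- replicate 2 its log2 fold change was -0.32 (edgeR adjusted p = 0.163). Dusp1, the stress-induced phosphatase of p38 and JNK, ran from 21.02 CPM in Cre- replicate 1 to 65.9 CPM in Cre- replicate 2. Its Cre+ libraries, at 29.7, 43.3 and 37.6 CPM, lay inside that range (log2 fold change -0.29, edgeR adjusted p = 0.753), and the estimate turned to 0.09 without Cre- replicate 2.

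The CCN genes encode matricellular proteins and are targets of the YAP and serum response factor pathways. Neither passed edgeR's test, DESeq2 or voom, or an unadjusted p under 0.05. Ccn2 (connective tissue growth factor), widely studied in diabetic glomeruli, stood at 37.1, 103 and 118 CPM in Cre- and 141, 117 and 134 CPM in Cre+. Only Cre- replicate 1 was far from the other 5 libraries, and the log2 fold change was 0.60 (SE 0.444, 95% interval -0.54 to 1.74, edgeR adjusted p = 0.495); without that library it was 0.24 (edgeR adjusted p = 0.232). Ccn1 stood at 32.4, 89.0 and 72.0 CPM against 38.8, 59.9 and 43.4 CPM (log2 fold change -0.44, edgeR adjusted p = 0.585), again with Cre- replicate 1 the lowest library; the estimate was -0.76 without it and -0.14 without Cre- replicate 2.

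Of the 11 heat shock genes, 1 (Hsp90aa1) was lower past the threshold and 0 were higher by edgeR, against 3.82% lower and 3.73% higher of all genes tested, so a single call among 11 is close to the background. At an unadjusted p under 0.05, by DESeq2 and by voom, 2 were lower (Hsp90aa1 and Hspb1) and 0 higher. Estimates were below 0 for 5 of the 11 and the median was 0.02. Hsp90aa1 (ENSMUSG00000021270), the inducible cytosolic HSP90 that holds kinases and steroid receptors, stood at 355, 354 and 364 CPM in Cre- and 273, 284 and 305 CPM in Cre+. Both genotypes were tight and did not overlap. The means were 358 ± 5.64 and 287 ± 16.2 CPM (SD, n = 3), a small difference on the log2 scale of -0.32 (SE 0.0739, 95% interval -0.48 to -0.15, edgeR adjusted p = 0.0359). The adjusted p ranged from 0.000573 to 0.146 over the alternatives, and was 0.0579 and 0.0616 without Cre- replicate 1 or 2, and 0.146, 0.132 and 0.0861 without Cre+ replicate 1, 2 or 3. Of the windows of 150 bases along its longest protein-coding transcript, 36.2% are shared with Gm12346, Gm5511 or Gm5844, which held 0 to 841 counts each.

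Hspb1, the small heat shock protein HSP27 that binds actin and intermediate filaments in podocytes and other cells, lay just outside the threshold. It stood at 44.6, 23.3 and 29.4 CPM in Cre- and 15.7, 19.0 and 14.3 CPM in Cre+. All Cre+ libraries were lower, and Cre- replicate 1 was the highest (log2 fold change -0.99, SE 0.239, edgeR adjusted p = 0.0520; 0.000175 to 0.174 over the alternatives). Hsp25-ps1, a copy that shares 36.6% of its windows, held 26 to 138 counts.

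Hspa1a and Hspa1b, the stress-inducible HSP70 genes and the usual readout of heat shock, spread widely within each genotype. Hspa1a stood at 44.2, 74.2 and 83.9 CPM in Cre- and 36.9, 63.3 and 48.0 CPM in Cre+ (log2 fold change -0.45, edgeR adjusted p = 0.433). Hspa1b stood at 69.5, 126 and 117 CPM against 44.0, 88.5 and 62.2 CPM (log2 fold change -0.68, SE 0.334, edgeR adjusted p = 0.296). The overlap of Hspa1b came from Cre+ replicate 2 alone, and without that library the log2 fold change was -0.97 (edgeR adjusted p = 0.179). Replicate 1 was the lowest of its genotype for both genes in both groups. The genes share 39.7% and 40.5% of their windows with each other or with Hspa1l, so their split is uncertain; their sum was 114, 201 and 201 CPM against 80.9, 152 and 110.2 CPM (log2 fold change -0.59, SE 0.316, edgeR adjusted p = 0.340).

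Among the remaining heat shock genes, 3 had narrow intervals around 0. Hspd1 and Hspe1, the mitochondrial HSP60 and HSP10 encoded head to head, had log2 fold changes of 0.03 (95% interval -0.14 to 0.19) and 0.02 (-0.18 to 0.21). Hspd1 stood at 443, 448 and 432 CPM in Cre- and 461, 434 and 451 CPM in Cre+. Both intervals leave out a fall of the size measured for Hsp90aa1 (-0.32). Bag3, the HSP70 co-chaperone of selective autophagy, was also closely bounded, with a log2 fold change of -0.06 (95% interval -0.24 to 0.12). Hspa8, the constitutive HSC70, had the highest level of the 35 per kilobase of exon, a mean of 387 CPM per kilobase in Cre- and 443 in Cre+; its libraries stood at 1315, 1722 and 1958 CPM against 1824, 1854 and 2043 CPM (log2 fold change 0.20, 95% interval -0.13 to 0.52, edgeR adjusted p = 0.459). Of its windows 55.4% are shared with gene copies, of which Gm15459 held 7084 to 10442 counts. Dnajb1, the HSP40 that loads HSP70, had a log2 fold change of 0.26 (95% interval -0.09 to 0.61, edgeR adjusted p = 0.349), Hsph1, its nucleotide exchange factor, of 0.04 (95% interval -0.40 to 0.49, edgeR adjusted p = 0.920), and Hsf1 itself of 0.15 (edgeR adjusted p = 0.447).

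The promoter windows of 3 heat shock genes, chosen after their values were seen, show where the letters of the HSF1 motif occur in a gene that spread widely within each genotype (Hspa1a), a gene lower in every Cre+ library (Hspb1) and a gene close to level (Hspe1). They lie at chr17:34972157-34972406 on the minus strand, chr5:135887669-135887918 on the plus strand and chr1:55087898-55088147 on the plus strand (RefSeq, GRCm38.p6), each the 250 bases before the start site. Capitals mark the heat shock core in Hspa1a (first base 104 bases before the start site), 2 cores in Hspb1 (117 and 97) and 2 overlapping heat shock elements in Hspe1 (89 and 84).
Hspa1a: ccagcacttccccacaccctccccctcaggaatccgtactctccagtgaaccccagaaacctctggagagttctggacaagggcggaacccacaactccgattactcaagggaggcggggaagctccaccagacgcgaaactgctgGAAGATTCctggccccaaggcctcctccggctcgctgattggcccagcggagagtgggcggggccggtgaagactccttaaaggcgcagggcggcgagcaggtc
Hspb1: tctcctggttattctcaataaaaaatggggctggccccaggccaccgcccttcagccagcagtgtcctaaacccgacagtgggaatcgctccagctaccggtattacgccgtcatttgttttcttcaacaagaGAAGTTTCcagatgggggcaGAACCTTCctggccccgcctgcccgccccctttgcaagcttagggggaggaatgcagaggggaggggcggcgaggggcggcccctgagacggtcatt
Hspe1: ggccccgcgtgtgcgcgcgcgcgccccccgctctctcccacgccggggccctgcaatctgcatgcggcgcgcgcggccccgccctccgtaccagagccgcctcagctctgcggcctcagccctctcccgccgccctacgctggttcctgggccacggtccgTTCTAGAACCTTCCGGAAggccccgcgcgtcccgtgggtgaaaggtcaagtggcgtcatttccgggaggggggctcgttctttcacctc
The core was present in 7 of the 33 windows, each of another gene, against 6.69% of all windows, and the full element in 2 (Hspd1 and Hspe1), against 0.466%. These windows of Hspd1 and Hspe1 each held 2 elements and 1 core. The 2 genes lie head to head, and whether their windows hold the same stretch of DNA was not checked. The windows of Hspa1a and Hspa1b matched at 247 of 250 bases. Genes with a core thus included some with estimates well below 0 (Hspb1, Fosl2) and some close to 0 (Hspd1, Hspe1).

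The libraries of a genotype differed from each other along many of these genes at once. Cre- replicate 1 was the lowest Cre- library for 18 of the 35 genes, among them Nr4a1, Ier3, Dusp1, Ccn1, Ccn2 and 8 of the heat shock genes, and the lowest of all 6 libraries for 10. Cre+ replicate 1 was the lowest Cre+ library for 24 genes and the lowest of all 6 for 15. Cre+ replicate 2, the library with little Xist, was the highest Cre+ library for 22 genes, among them Fos, Jun, Egr1 and Nr4a1. The spread within a genotype differed between genes: the highest library exceeded the lowest by a factor of 1.03 in Cre- and 1.24 in Cre+ for Ier5, against 3.13 and 1.46 for Dusp1. Without Cre+ replicate 2, 4 of the 35 genes were lower (Fos, Fosl2, Egr1 and Ier5) and 0 higher. Of all 20562 genes tested in that setting, 324 were lower and 281 higher.

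**Figure D3:**
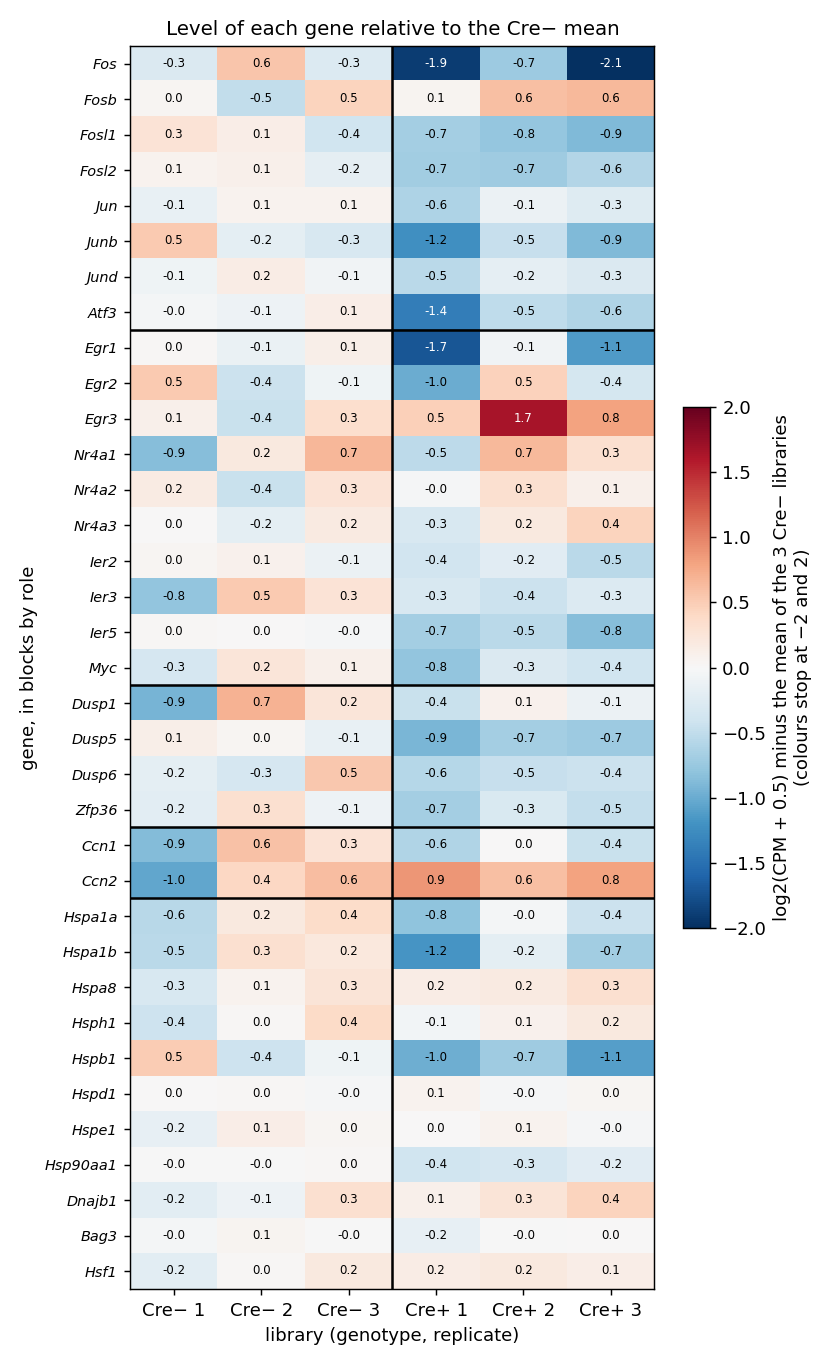
Level of each of the 35 genes in each library relative to the mean of the 3 Cre- libraries, as a difference of log2(CPM + 0.5), with blue for lower and red for higher values; rows are genes by role and columns are the 6 libraries. Cre+ replicate 1 is the lowest Cre+ column for 24 genes, and Cre- replicate 1 is below its own genotype's other libraries for 18.

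Other immediate-early and delayed-early genes, outside the 35, were taken as a list of 37, of which 33 were tested. Past the threshold 10 were lower and 1 higher, against 3.82% lower and 3.73% higher of all genes tested. The median log2 fold change was -0.36. The smallest adjusted p values were those of Plk2, a stress-induced kinase at 38.5, 44.3 and 34.2 CPM in Cre- and 14.3, 15.1 and 17.3 CPM in Cre+ (log2 fold change -1.33, SE 0.121, edgeR adjusted p = 0.000698), the antiproliferative Btg1 (-0.54, edgeR adjusted p = 0.00470), the TGF-beta-inducible factor Klf10 (-0.88, edgeR adjusted p = 0.00658) and Btg2, another antiproliferative gene (-0.97, edgeR adjusted p = 0.00687). Maff, a small Maf factor, had the lowest estimate of the list, -1.74. The gene that was higher, Klf2, is an endothelial factor induced by shear stress, at 16.9, 28.1 and 26.5 CPM in Cre- and 44.2, 44.7 and 42.9 CPM in Cre+ (log2 fold change 0.88, edgeR adjusted p = 0.0229). Without Cre+ replicate 2, 6 genes of the list were lower and 0 higher, against 324 lower and 281 higher of all 20562 genes tested in that setting. Egr4 and Ereg had 0 counts in every library.

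The genes of the kinase route that leads to these genes were taken as another list. Of its 34 genes of receptors, RAS, RAF, MEK, ERK, their kinases and serum response factor partners, 1 was lower (Rps6ka1, the ERK-activated kinase RSK1, log2 fold change -0.56, edgeR adjusted p = 0.0254) and 0 were higher by edgeR, against 7.55% of all genes called. At an unadjusted p under 0.05, 2 were higher and 3 lower. DESeq2 called 1 higher and 1 lower, and voom 0 higher and 1 lower. The median was -0.03. No test compared this list with the others. Of 17 tested feedback inhibitors outside the 35, Dusp4 (-1.09, edgeR adjusted p = 0.0111) and Spred3 (-1.12, edgeR adjusted p = 0.0318) were lower and Spry1 (0.50, edgeR adjusted p = 0.0225) was higher, with a median of -0.10. Dusp4, another nuclear phosphatase of ERK, stood at 13.8, 11.6 and 14.0 CPM in Cre- and 4.84, 7.53 and 6.15 CPM in Cre+, without overlap.

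Among 40 other cytosolic chaperones and co-chaperones, 3 were lower and 1 higher past the threshold, with a median of -0.05. Of all genes tested 7.55% were called, 3.82% lower and 3.73% higher, so the calls on this list were not far from the background. Fkbp5, an HSP90 co-chaperone that glucocorticoids induce, had the smallest adjusted p, at 57.5, 66.6 and 41.9 CPM in Cre- and 22.3, 23.1 and 26.4 CPM in Cre+ (log2 fold change -1.21, SE 0.163, edgeR adjusted p = 0.00532). The small heat shock genes Hspb6 (-0.91, edgeR adjusted p = 0.0345) and Hspb8 (-0.93, edgeR adjusted p = 0.0459) were lower too, and Dnajb5 (0.72, edgeR adjusted p = 0.0178) was higher. Of 10 mitochondrial chaperones and proteases, 0 passed edgeR's test in either direction, with 2 lower and 1 higher at an unadjusted p under 0.05, 1 lower by DESeq2 and 0 by voom. Hspa9, the mitochondrial HSP70, had the smallest p of them (log2 fold change -0.22, edgeR adjusted p = 0.151).

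**Figure D4:**
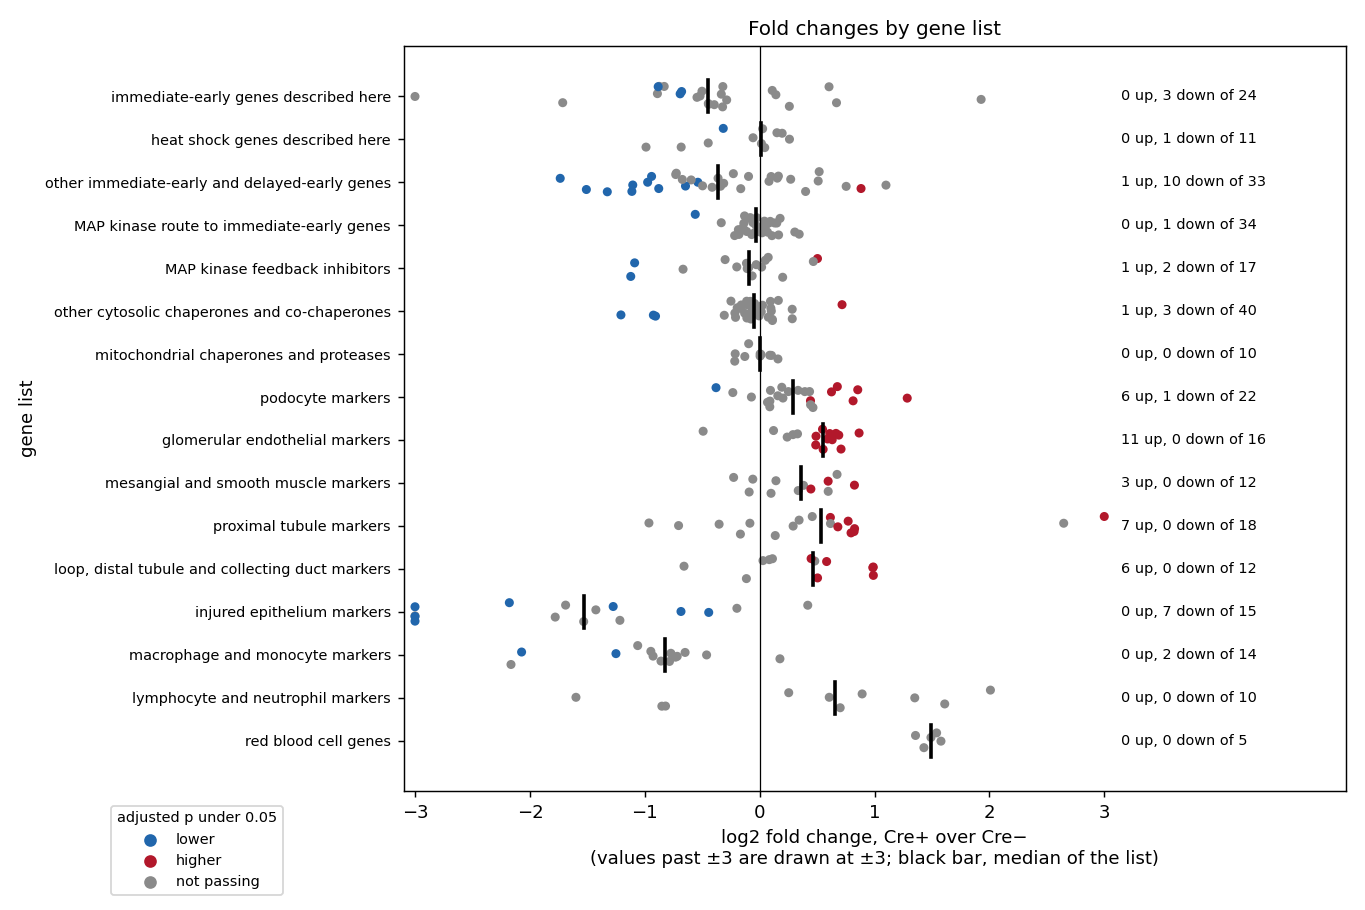
Log2 fold change of Cre+ over Cre- for every tested gene of the 35, split into immediate-early and heat shock genes, and of the pathway and marker lists; each point is a gene, coloured by its call, and the black bar is the list's median. Immediate-early genes sit mostly to the left (medians -0.45 and -0.36), the chaperone lists near 0, endothelial and tubule markers to the right, and injured epithelium markers far to the left.

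Markers of the cell types that glomerular preparations hold moved with genotype as well. In bulk samples, fewer cells of a type and less RNA per cell cannot be told apart. Of 15 markers of injured epithelium, 7 were lower and 0 higher by edgeR (1 higher at an unadjusted p under 0.05, 0 by DESeq2 or voom), with a median of -1.53. Their summed level was 13003, 6403 and 4686 CPM in the Cre- libraries and 2772, 2519 and 2721 CPM in the Cre+ libraries. Krt20, a keratin of injured tubules, stood at 19.0, 14.2 and 4.00 CPM against 0.525, 0.720 and 0.186 CPM. Cre- replicate 1 had the highest sum of these markers. It was the lowest Cre- library for 18 of the 35 genes and the highest for 6 (Fosl1, Junb, Egr2, Ier5, Dusp5 and Hspb1). Of 14 macrophage and monocyte markers 2 were lower by edgeR (C1qc and Cd14), 8 by DESeq2 and 1 by voom, and 0 were higher by any of the 3, at 209 to 408 CPM summed in Cre- and 198 to 209.6 CPM in Cre+. Without Cre+ replicate 2, 3 injury markers and 0 macrophage markers were lower past the threshold, and without Cre- replicate 1, 8 and 2. Over all genes, 324 and 572 were lower in these settings, against 762 of 19927 with every library. The part of injured epithelium and macrophages in the lower AP-1, Ier5 and Dusp5 levels was not tested.

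Markers of resident cells ran the other way. Of 16 glomerular endothelial markers 11 were higher and 0 lower (1 lower by DESeq2, 0 by voom, and 1 at an unadjusted p under 0.05), with sums of 1059 to 1187 CPM in Cre- and 1435 to 1619 CPM in Cre+. Of 22 podocyte markers 6 were higher and 1 was lower, Cd2ap, with sums of 1761 to 1937 against 2233 to 2366 CPM. Of 12 mesangial and smooth muscle markers 3 were higher by edgeR and 4 by DESeq2 and by voom, and 0 were lower by any of them, with sums of 441 to 553 against 610.5 to 639 CPM. Proximal tubule markers were 7 of 18 higher and 0 lower by edgeR (3 lower by DESeq2, 2 by voom and 3 at an unadjusted p under 0.05), with sums of 20479 to 25828 against 29637 to 31179 CPM. Markers of the later nephron (loop of Henle, distal tubule, collecting duct) were 6 of 12 higher by edgeR and by DESeq2 and 5 by voom, and 0 were lower by any of them, with sums of 6185 to 7542 against 9833 to 10400.4 CPM. None of the markers was at 0 in all libraries, and these preparations held tubule RNA in every library. Of 10 tested lymphocyte and neutrophil markers 0 passed edgeR's test (2 higher and 1 lower at an unadjusted p under 0.05; 2 higher by DESeq2 and 1 by voom), with sums of 6.60 to 14.7 CPM in Cre- and 10.6 to 15.2 CPM in Cre+. Of 5 red blood cell genes 0 passed (2 higher at an unadjusted p under 0.05, 1 higher by DESeq2 and 0 by voom), with sums of 71.5 to 215.9 against 216.3 to 584 CPM. Without Cre+ replicate 2, 7 endothelial, 3 podocyte, 2 mesangial, 7 proximal tubule and 4 later nephron markers were higher. Over all genes, 281 were higher in that setting, against 743 of 19927 with every library. The part of these marker shifts in the results on the 35 genes was not tested.

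Some values depend on how reads were assigned. Exons of Fosl1, Junb and Dusp1 overlap those of Ccdc85b, Prdx2 and Ergic1 on the opposite strand, and those of Hspd1 and Hspe1 overlap each other. The libraries marked strand, but no source used here says whether the counting used it. Reads within the overlapping stretches may therefore be assigned to either gene of a pair. How long these stretches are was not measured. Prdx2 held 8751 to 11244 counts, far above those of Junb, and Ccdc85b held 1074 to 1311, far above those of Fosl1. Fosl2 and Ier5 had no such overlap, and their longest protein-coding transcripts shared no window with another gene.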

How the data were processed

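Polyadenylated RNA of glomeruli from 6 mouse samples was sequenced as strand-marked read pairs, per the labels' protocols. The authors deposited whole-number counts per Ensembl gene; fastp, HISAT2, StringTie, edgeR and GRCm39 are named in the submitters' processing notes, without versions or roles. No source used here gives the annotation release, strand setting or handling of multiply matching reads; counts of near-identical or overlapping genes are uncertain.

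Symbols were found for 51880 of 57132 rows. The counts as deposited were analysed in R 4.3.3 with edgeR 4.0.16 (filterByExpr, TMM, quasi-likelihood fit, robust=TRUE); adjusted p is Benjamini-Hochberg over all 19927 genes tested, threshold 0.05. The SE is the estimate over the root of its F statistic. Alternatives were other scalings and filters, DESeq2 1.42.0, limma 3.58.1 with voom and quality weights, a replicate block, and leaving out each library. Library pairs differed beyond sampling noise (chi-square per degree of freedom of 20.6 or more). Gene lengths and exon overlaps came from GENCODE M21 on GRCm38, so no gene coordinates are printed; promoter windows are RefSeq's on GRCm38.p6.

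The genes, lists and tests were chosen with earlier results of these data known. Values per library are given for genes past the threshold, without overlap, or with the smallest p of a role group in which none passed; from each other list, up to 4 called genes with the smallest p, or the 1 with the smallest p, were to be named. For most of the cell type marker lists this was not done, and of these markers only Krt20, C1qc, Cd14 and Cd2ap were named. Other genes described by library were chosen after their values were seen.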

Additional observations from a re-analysis of the deposited data

How the results depend on the processing

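DESeq2 called 2697 genes in all (1430 lower, 1267 higher) against 1505 by edgeR, and 12 of the 35 genes, all lower; voom called 7, all lower. Leaving out each library in turn gave 462 to 2039 calls over all genes (258 to 1052 lower, 204 to 987 higher) and 2 to 5 among the 35. DESeq2 also called 10 podocyte and 11 proximal tubule markers higher, and 11 injured epithelium and 8 macrophage markers lower, against 6, 7, 7 and 2 by edgeR. None of the 35 was called higher in any setting tried, and no called value reversed. Fosl2 and Ier5 passed in every setting. Dusp5 and Hsp90aa1 lost their calls when any of 5 of the 6 libraries was left out (all but Cre- replicate 3) and with the replicate block below, and kept them in the other settings. Same-numbered samples share a number in the labels; their deviations from the genotype means correlated at 0.0547, 0.0551 and 0.0173, so the numbers were not taken as pairs, although each library correlated best with its own number. With the replicate block, 1541 genes were called (804 lower, 737 higher) and 6 of the 35 were lower: Fos, Fosl2, Jund, Ier5, Zfp36 and Hspa1b, the last with a log2 fold change of -0.69 (edgeR adjusted p = 0.00718), while Dusp5 and Hsp90aa1 were not called (edgeR adjusted p = 0.0640 and 0.0531). Depth limits Fosl1, Egr3, Nr4a3 and Fosb, the genes with the lowest levels per kilobase.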
